A study of Mus musculus with 18 samples.

Results

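The miR-148 and miR-152 family in mouse NIH/3T3 cells, an established embryonic fibroblast line, was followed in libraries of small RNA, both unselected and pulled down by immunoprecipitation (IP) with a monoclonal pseudouridine (Ψ) antibody. Its members were chosen by name: mmu-miR-148a-3p, mmu-miR-148b-3p, mmu-miR-152-3p, mmu-miR-148a-5p and mmu-miR-152-5p, which are 5 of the 1907 mature miRNAs in the deposited count table. The partner strand mmu-miR-148b-5p is no member and is given beside them, so that all 6 arms of the 3 hairpins are covered. The 18 libraries fell into 6 groups of 3 replicates, lettered A to C: input and IP from cells labelled Pus1 WT, from cells 3 days after Pus1 knockdown (KD3), and from cells 6 days after it (KD6). All cells were NIH/3T3 grown in the same medium, and input is the size-selected small RNA that did not go through the IP. The labels give neither the agent that lowered Pus1, an enzyme that converts uridine to Ψ, nor whether replicates came from separate cultures, so p-values measure the spread between these samples, which may be technical. Pus1 mRNA was not analysed here, and IP against input is a ratio of reads, not a count of modified molecules.

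A miRNA is cut from a hairpin precursor, and one of its strands is loaded into an Argonaute protein, where bases 2 to 8, the seed, pair with target transcripts. The 3p strands of the family carry one seed and are best known for targeting the transcript of the DNA methyltransferase DNMT1. The family comes from separate genes, 2 of which lie inside genes for coatomer subunits, and the 5p strands are usually the minor product. Ψ is made from uridine after transcription and can be placed in a precursor or in the mature strand, which is why the position and number of uridines are given with each sequence.

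The mature sequences below are those of RefSeq on GRCm38.p6, the assembly that mm10 also names, with the seed in capitals. They are shown because the 3p strands differ from each other at only a few bases, which sets how well reads of one member can be told from those of another.
mmu-miR-148a-3p: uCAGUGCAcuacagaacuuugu
mmu-miR-148b-3p: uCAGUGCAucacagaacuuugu
mmu-miR-152-3p: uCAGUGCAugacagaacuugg
mmu-miR-148a-5p: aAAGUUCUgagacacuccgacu
mmu-miR-148b-5p: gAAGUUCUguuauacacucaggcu
mmu-miR-152-5p: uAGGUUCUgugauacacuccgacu

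The 3p strands had the same seed, and no other mature miRNA in the table with a RefSeq sequence (1623 of 1907 names) had it. Counted from 1 at the 5′ end, miR-148b-3p differed from miR-148a-3p by U9C and C10U, and from miR-152-3p by C10G and U20G, with 1 more base at its 3′ end. miR-148a-3p differed from miR-152-3p by C9U, U10G and U20G. miR-148a-3p and miR-148b-3p had 7 uridines each and miR-152-3p had 5, always with a uridine at positions 1 and 5. The uridine at position 9 in miR-148b-3p and miR-152-3p lay at position 10 in miR-148a-3p. Among the 5p strands, miR-148a-5p and miR-148b-5p shared a seed, while that of miR-152-5p was found in no other mature miRNA. The 5p strands of miR-152 and miR-148b held 8 uridines each and that of miR-148a held 5. Values of miR-148a-3p, miR-148b-3p and miR-152-3p were often not whole. WT input replicate A, for example, held 470.3 estimated counts of miR-148a-3p and 9830.7 of miR-152-3p. Of all non-zero values of the count table, 47.0% were not whole. In these counts a read is divided among the places it matches. Which places shared a read is not given, so how far the near-identical strands shared reads is not known.

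In the hairpins, shown to place both strands in their genes, the 5p and 3p strands are in capitals.
Mir148a: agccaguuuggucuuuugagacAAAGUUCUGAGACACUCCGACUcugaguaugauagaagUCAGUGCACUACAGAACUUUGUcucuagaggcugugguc
Mir148b: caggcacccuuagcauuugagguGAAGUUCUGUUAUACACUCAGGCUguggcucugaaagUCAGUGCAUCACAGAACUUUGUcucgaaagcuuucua
Mir152: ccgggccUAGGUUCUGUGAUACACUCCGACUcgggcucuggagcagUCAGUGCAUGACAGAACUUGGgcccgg

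On GRCm38.p6, Mir148a lay at chr6:51269812-51269910 on the minus strand, outside other annotated genes. Mir148b lay at chr15:103285125-103285221 on the plus strand, in an intron of Copz1, which encodes a zeta subunit of the coatomer coat of Golgi vesicles. Mir152 lay at chr11:96850393-96850465 on the plus strand, in an intron of Copz2, which encodes the related subunit. Both hosts were transcribed in the direction of their miRNA gene. The mature miR-148b-3p occupied chr15:103285185-103285206, miR-152-3p chr11:96850439-96850459 and miR-148a-3p chr6:51269829-51269850. Their 5p partners occupied chr15:103285148-103285171, chr11:96850400-96850423 and chr6:51269867-51269888.

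Library depth was 3989031 to 15099781 mapped reads in 17 libraries and 241109 in replicate A of the KD6 input. The tested members' log2 ratios and differences fitted with that library are therefore also given without it. Fitted KD6 ratios of other miRNAs, miR-148b-5p among them, are given with it. Reads in no miRNA row made up 5.47% to 9.96% of mapped reads in inputs and 14.8% to 38.2% in IPs. The labelled cell type was checked against miRNAs known from fibroblasts and mesenchyme: all 7 had reads in WT input, and they summed to 350895 to 579078 CPM (read counts scaled to a common library size) across inputs against 79695 to 205777 CPM across IPs. In WT input miR-21a-5p averaged 431561 CPM, miR-143-3p 76352 CPM and no other of the list more than 7324 CPM. The sum thus mostly reflects miR-21a-5p. Markers of blood cells summed to at most 0.94 CPM and those of epithelium to at most 3.25 CPM in any input. miR-124-3p, which defines neurons, and miR-133a-3p, which defines muscle, were at or near 0 in inputs (at most 0.28 CPM), while miR-9-5p (919 to 1413 CPM), miR-206-3p (98.8 to 265 CPM) and the liver miRNA miR-122-5p (27.3 to 77.2 CPM) were present. All CPM values use TMM effective library sizes, so a level is relative to the other miRNAs of its library. Where fewer cells holding a miRNA and less of it per cell could both lower a level, bulk libraries cannot tell them apart.

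miR-148b-3p, the member with the most reads, gave 60.3% of all member reads over the 6 groups, 171867 of them in estimated counts. In WT input it stood at 2197, 1865 and 2333 CPM in replicates A, B and C, and in WT IP at 151.6, 205 and 165 CPM. In KD3 it stood at 2502, 2096 and 2037 CPM in input and 254, 248 and 165 CPM in IP. In KD6 it stood at 1374, 2840 and 2521 CPM in input and 267, 350 and 359 CPM in IP. Every IP library lay below every input library in each condition, and replicate A of the KD6 input was the lowest input. The WT group means were 2131 ± 241 CPM for input against 174 ± 27.7 CPM for IP (SD, n = 3). Its log2 ratio of IP over input was −3.61 (SE 0.26) in WT, −3.32 (SE 0.26) in KD3 and −2.79 (SE 0.26) in KD6, the last being −3.23 when replicate A of the KD6 input was left out.

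miR-152-3p, the strand of the Copz2 hairpin with the same seed, gave 34.9% of member reads. It stood at 1230, 1073 and 1158 CPM in the WT inputs and 136, 124 and 121 CPM in the WT IPs. In KD3 the inputs held 1276, 1173 and 1215 CPM and the IPs 162, 139 and 166 CPM. In KD6 the inputs held 1008, 1801 and 1788 CPM and the IPs 60.7, 114 and 171 CPM. The WT and KD3 libraries of one kind lay close together, whereas the KD6 IPs spanned from 60.7 CPM in replicate A to 171 CPM in replicate C. All IPs were below all inputs. The log2 ratio of IP over input was −3.18 (SE 0.29) in WT, −2.97 (SE 0.29) in KD3 and −3.73 (SE 0.30) in KD6, or −4.12 in KD6 without replicate A of the input.

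miR-152-5p, the partner strand of miR-152-3p, gave 3.11% of member reads. Its CPM values were 107, 95.9 and 118 in WT input against 5.79, 4.63 and 4.81 in WT IP. In KD3 they were 158, 139 and 160 in input against 11.4, 6.01 and 6.51 in IP. In KD6 they were 134, 99.0 and 79.8 in input against 8.04, 9.40 and 2.83 in IP. The groups did not overlap between IP and input in any condition, and the IP values rested on 15 to 39 estimated counts per library. The log2 ratios were −4.40 (SE 0.35), −4.27 (SE 0.34) and −3.98 (SE 0.36) in WT, KD3 and KD6, and −4.03 in KD6 without replicate A of the input.

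miR-148a-3p, which shares the seed but comes from its own intergenic gene, gave 1.68% of member reads. It was at 58.8, 58.6 and 73.3 CPM in the WT inputs and at 4.21, 2.41 and 3.85 CPM in the IPs. In KD3 it was at 59.3, 53.8 and 74.1 CPM in input and 1.43, 5.21 and 2.34 CPM in IP. In KD6 it was at 40.6, 77.7 and 71.2 CPM in input and 10.2, 4.93 and 5.29 CPM in IP. Every IP was below every input, with 4 to 28 estimated counts per IP library and only 10 in replicate A of the KD6 input. The log2 ratios were −4.19 (SE 0.36) in WT, −4.45 (SE 0.39) in KD3 and −3.32 (SE 0.36) in KD6, and −3.66 in KD6 without replicate A of the input.

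**Figure D1:**
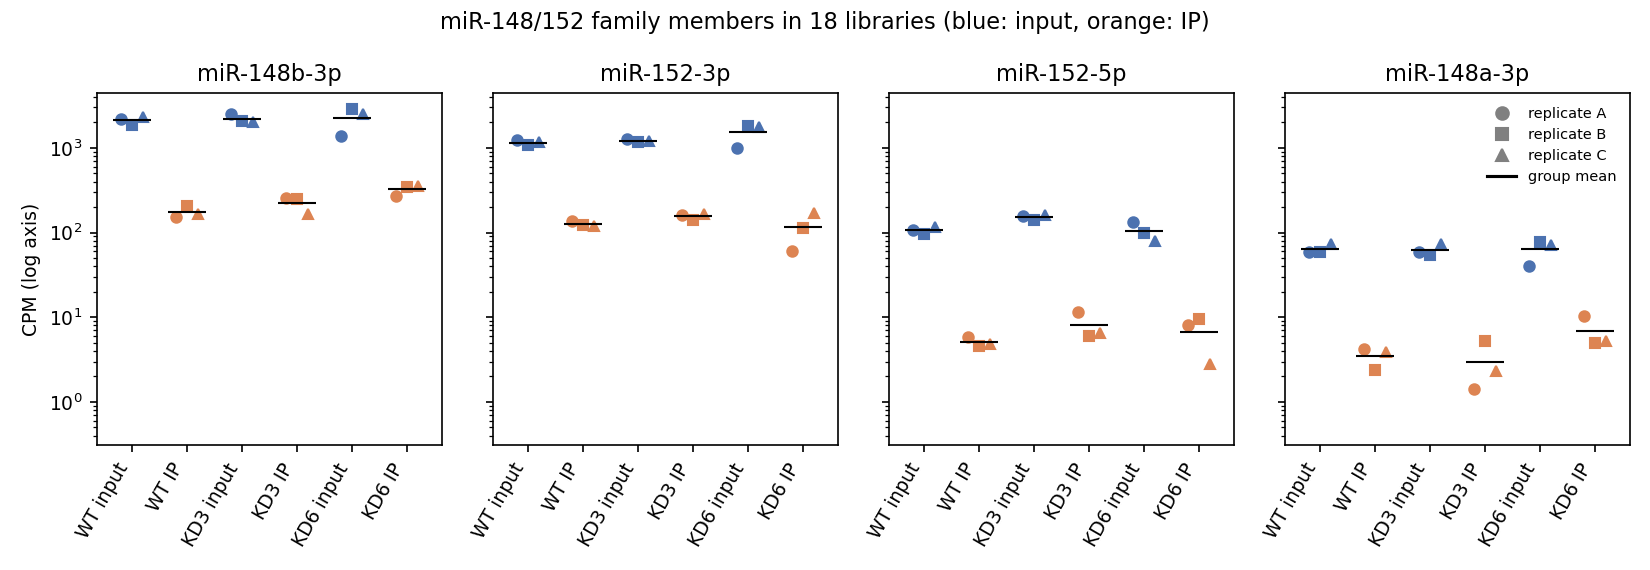
CPM (log axis) of miR-148b-3p, miR-152-3p, miR-152-5p and miR-148a-3p in each of the 18 libraries, with inputs in blue, IPs in orange, a marker shape for each replicate and a black line at the group mean of 3 libraries. For each of these members every IP library of a condition sits below its inputs, and replicate A of the KD6 input is the lowest input of miR-148b-3p, miR-152-3p and miR-148a-3p.

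miR-148a-5p was close to absent, with 52 estimated counts in all 18 libraries, and was removed by the filter on low counts, so 4 of the 5 members were tested. Its 3 replicates held 1, 5 and 13 estimated counts in WT input and 0, 0 and 0 in WT IP. They held 11, 9 and 7 in KD3 input and 3, 0 and 0 in KD3 IP, and 0, 2 and 1 in KD6 input against 0 in each KD6 IP. With 19 counts summed over WT input and a floor of 3 counts over the WT IP group, which a count of 0 allows, it was at least 3.08-fold lower in IP as a share of miRNA reads. In KD3, 27 counts in input and 3 in IP gave a ratio of input to IP of 3.27, with an exact counting interval (95%) of 1.01 to 16.9, and no fold is given for KD6, where both groups were at or under the floor. Intervals and floors cover counting error only.

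The question put to each condition was whether the antibody pulled down a strand in greater or lesser proportion than its input. With edgeR's quasi-likelihood test and Benjamini-Hochberg adjustment over the 534 miRNAs tested, all 4 tested members were lower in IP in each condition. Their adjusted p from edgeR lay between 2.4e-10 and 7.1e-09 in WT, between 9.2e-10 and 1.9e-08 in KD3, and between 8.4e-10 and 6.3e-08 in KD6. The background was high: 40.4% of all tested miRNAs were called lower in IP in WT, 39.0% in KD3 and 37.6% in KD6. Every IP library lay below every input library for 44.6% of all tested miRNAs in WT, 42.7% in KD3 and 27.0% in KD6, and for 4 of 4 tested members in each condition. A call of lower in IP was thus common in these libraries, and the size of the ratio says more about the members than the call.

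The median log2 ratio of the 4 members was −3.90 in WT, −3.79 in KD3 and −3.53 in KD6, against −0.35, −0.25 and −0.28 over all 534 miRNAs. With replicate A of the KD6 input left out, the KD6 median over all miRNAs tested was −0.48, and the 4 members lay between −4.12 and −3.23. In WT, 52 miRNAs had a lower ratio than miR-148a-3p, 67 than miR-148b-3p, 89 than miR-152-3p and 47 than miR-152-5p. At most 16.7% of all tested miRNAs had a lower WT ratio than any one member, and miRNAs with much lower ratios existed. In KD6 the numbers were 92, 112, 78 and 74, so miR-152-3p had the highest ratio of the 4 in WT and, after miR-152-5p, the lowest in KD6. The partner strand miR-148b-5p, from 4 to 33 estimated counts per WT IP library, also passed the test, with log2 ratios of −2.996 (SE 0.49) in WT, −3.12 (SE 0.52) in KD3 and −1.79 (SE 0.49) in KD6 (edgeR quasi-likelihood, adjusted p = 2e-05, 2.3e-05 and 0.0030). Its KD6 IPs and inputs overlapped, since replicate A of the KD6 input held no read of it, and its KD6 ratio is given with that library.

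**Figure D2:**
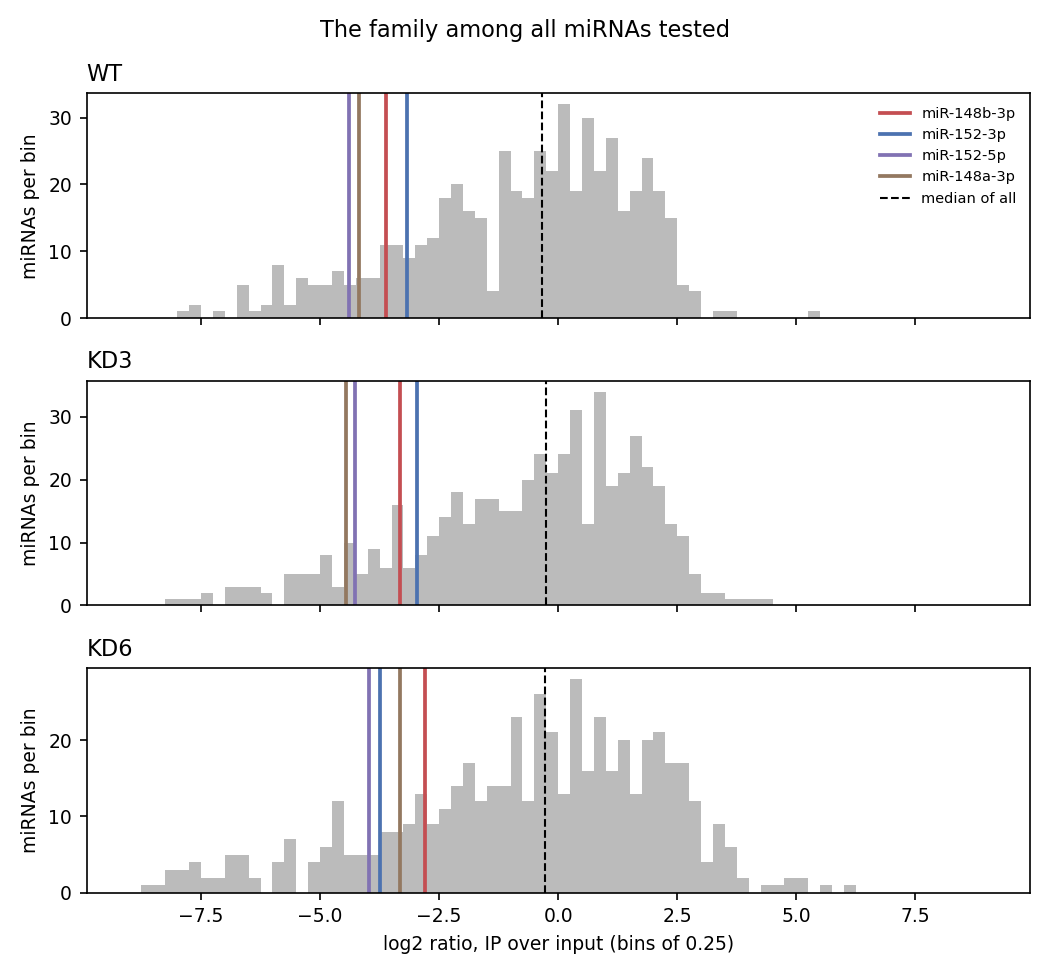
Number of miRNAs per 0.25-wide bin of the log2 ratio of IP over input for the 534 miRNAs tested, in WT, KD3 and KD6, with coloured lines at the 4 tested members and a dashed line at the median of all. The members sit between −4.40 and −3.18 in WT, to the left of the median of −0.35, with 47 miRNAs further left than miR-152-5p.

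As a share of reads in miRNA rows, which needs no scaling factor, the 5 members made up 0.304%, 0.273% and 0.304% in the WT inputs and 0.0300%, 0.0320% and 0.0276% in the WT IPs. The KD3 inputs gave 0.342%, 0.315% and 0.295% and the KD3 IPs 0.0402%, 0.0354% and 0.0324%. They were 0.280%, 0.465% and 0.513% in KD6 input and 0.0234%, 0.0349% and 0.0451% in KD6 IP, where replicate A was the lowest in both. The mean was 0.343% over the 9 inputs and 0.0334% over the 9 IPs. A two-sided exact permutation test of IP against input within condition gave p = 0.00025, the smallest it can give, and 0.0015 adjusted over the 6 single-value tests.

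The order of read levels was the same in all 3 input groups and in WT IP, and where it differed, in KD3 IP and KD6 IP, the arms that changed places overlapped. The arms are of similar length, so their levels were compared in CPM without a length correction. The order is one of reads, and whether strands of different sequence were captured equally was not tested. In WT input the order was miR-148b-3p (2131 CPM), miR-152-3p (1154 CPM), miR-152-5p (107 CPM), miR-148a-3p (63.6 CPM), miR-148b-5p (26.9 CPM) and miR-148a-5p (0.68 CPM), and no neighbours overlapped. The KD3 input had the same order without overlap. In KD6 input the order was the same, but the ranges of miR-148b-3p and miR-152-3p overlapped, as did those of miR-148b-5p and miR-148a-5p. In WT IP miR-148a-3p and miR-148b-5p overlapped. In KD3 IP these strands overlapped as well, as did miR-148b-3p (165 to 254 CPM) and miR-152-3p (139 to 166 CPM). In KD6 IP miR-148b-5p, miR-148a-3p and miR-152-5p, at 7.02, 6.82 and 6.76 CPM, could not be told apart.

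Fewer distinct read sequences stood behind the IP values, which also rested on fewer reads. miR-148b-3p had 231 to 252 distinct sequences per WT input library, each read 72.7 to 83.9 times on average, and 36.3 to 51.2 per WT IP library, each read 15.9 to 20.8 times. miR-152-3p had 172 to 187 in WT input and 36.6 to 47.1 in WT IP. miR-148a-3p had 32.5 to 43.7 in WT input and 4.8 to 6.5 in WT IP.

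Ratios between members of one library do not depend on how libraries are scaled, so they show whether strands with the same seed were lost in IP to the same extent. The ratio of miR-148b-3p to miR-152-3p was 1.79, 1.74 and 2.01 in the WT inputs and 1.12, 1.65 and 1.37 in the WT IPs. In KD3 it was 1.96, 1.79 and 1.68 in input and 1.56, 1.78 and 0.99 in IP. In KD6 it was 1.37, 1.58 and 1.41 in input and 4.39, 3.06 and 2.09 in IP. All WT IPs were below all WT inputs, 1 of the 9 KD3 IP and input pairs went the other way, and all KD6 IPs were above all KD6 inputs and above every other library.

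On the log2 scale the ratio of miR-148b-3p to miR-152-3p was 0.44 lower in IP than in input in WT (0.45 ± 0.28 in IP against 0.88 ± 0.11 in input, SD, n = 3 each). The difference of IP minus input was −0.36 in KD3 and 1.07 in KD6 (1.61 ± 0.53 in IP against 0.53 ± 0.11 in input). Over the 3 conditions together it was 0.09, with an exact permutation p of 0.70 and an adjusted p of 0.70. Its change from WT to KD6 was 1.51, and an exact permutation test of the 3 same-letter differences gave p = 0.1, the smallest that 3 against 3 allows. Without replicate A of the KD6 input the change was 1.46, and over all 12 libraries left out in turn, a check chosen after the data were seen, it lay between 1.24 and 1.78. Most of the change lay in the IPs, where the log2 ratio was 1.16 higher in KD6 than in WT, while in the inputs it was 0.35 lower.

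**Figure D3:**
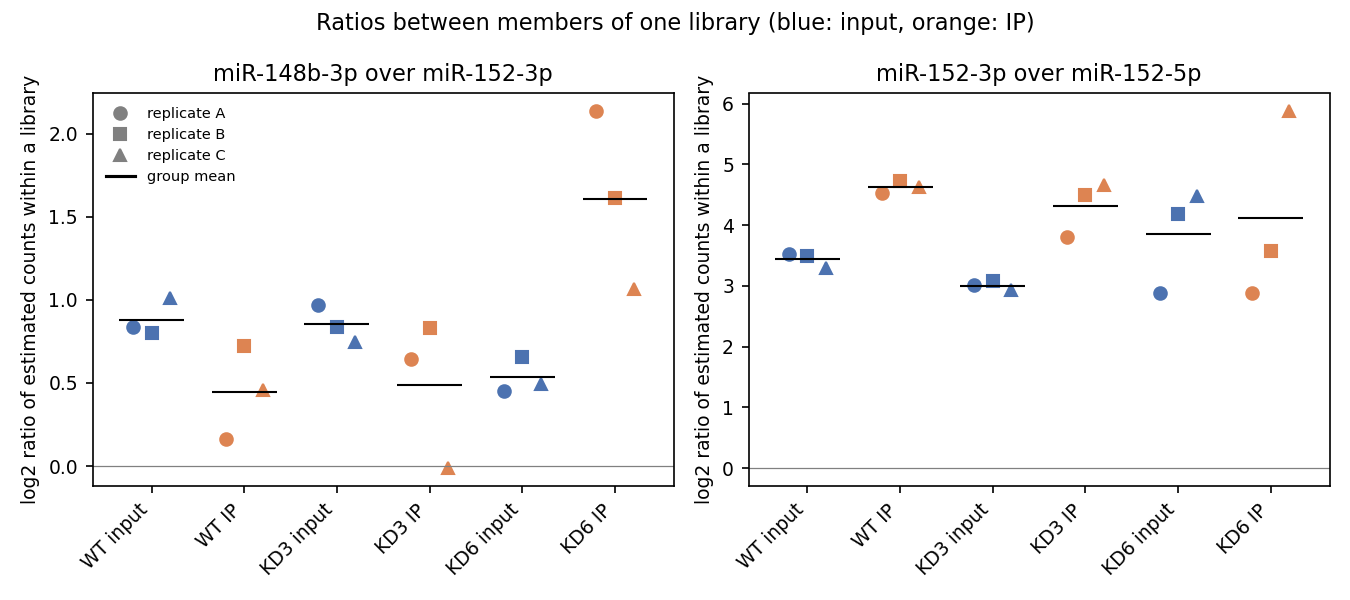
Log2 ratio of estimated counts (pseudocount 0.5) of miR-148b-3p over miR-152-3p, left, and of miR-152-3p over its partner strand miR-152-5p, right, in each of the 18 libraries, with inputs in blue, IPs in orange, a marker shape for each replicate and a line at the group mean. On the left the 3 KD6 IPs, at 1.07 to 2.13, lie above all other libraries, and on the right the KD6 IPs and inputs overlap while those of WT and KD3 do not.

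miR-148b-3p kept a larger part of its reads in IP than miR-148a-3p, which differs from it by U9C and C10U. Their ratio was 31.8 to 37.3 in WT input and 36.1 to 82.9 in WT IP, 27.5 to 42.2 in KD3 input and 45.9 to 158 in KD3 IP, and 32.3 to 36.5 in KD6 input and 25.6 to 67.9 in KD6 IP. Over the conditions the log2 ratio was 0.74 higher in IP (exact permutation within condition, p = 0.015, adjusted p = 0.043). Within conditions the difference was 0.57 in WT, 1.17 in KD3 and 0.49 in KD6, and IP and input overlapped in WT and KD6. These IP values rest on 4 to 28 estimated counts of miR-148a-3p per library. The ratio of miR-152-3p to miR-148a-3p was 0.65 higher in IP on the log2 scale, which did not pass the test (exact permutation p = 0.115, adjusted p = 0.138), with 1.01 in WT, 1.53 in KD3 and −0.58 in KD6.

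The balance of the strands of the Mir152 hairpin also differed between IP and input. miR-152-3p exceeded miR-152-5p by 11.5, 11.2 and 9.85 fold in the WT inputs and 22.9, 26.3 and 24.7 fold in the WT IPs. In KD3 it did so by 7.59 to 8.42 fold in input and 14.0 to 25.2 fold in IP, and in KD6 by 7.40 to 22.4 fold in input and 7.40 to 58.6 fold in IP. IP and input did not overlap in WT and KD3 and overlapped widely in KD6. The log2 ratio was 0.92 higher in IP over the 3 conditions (exact permutation p = 0.0215, adjusted p = 0.043), with differences of 1.18 in WT, 1.31 in KD3 and 0.26 in KD6. The call was lost when replicate A of the KD6 input was left out (0.76, p = 0.079 by the exact permutation test). It was also lost when the KD6 IP lacked its replicate C (0.63, p = 0.078 by the same permutation test). For miR-148b the 3p to 5p ratio was 0.80 lower in IP on the log2 scale and did not pass (exact permutation p = 0.109, adjusted p = 0.138). miR-148b-5p had no read in replicate A of the KD6 input, and 145 and 270 estimated counts in replicates B and C. It passed at an unadjusted p of 0.0365 without replicate A of the WT IP and of 0.016 without replicate B of the KD3 IP, and the ratio of miR-152-3p to miR-148a-3p passed at 0.00175 without replicate A of the KD6 IP, all by the exact permutation test.

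The next question was whether the ratio of IP over input differed between the Pus1 knockdown groups and WT. The labels give no day for the WT cells and name no control treated like the knockdown cells. Knockdown therefore cannot be told apart from time or treatment in any comparison with WT, and KD6 against KD3 compares days. In KD3 against WT none of the 4 members was called, and 0.00% of the 534 miRNAs were (0 in either direction by edgeR's quasi-likelihood test, with 15 at an unadjusted p under 0.05, and 0 by DESeq2). The members' changes in log2 ratio were −0.26 (SE 0.52) for miR-148a-3p, 0.30 (SE 0.34) for miR-148b-3p, 0.22 (SE 0.38) for miR-152-3p and 0.13 (SE 0.45) for miR-152-5p, against a median of 0.14 over all miRNAs. Each of these lay within 1 SE of 0. A difference of this size was not detectable with these libraries.

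In KD6 against WT none of the 4 members was called, against 1.12% of all miRNAs. The changes were 0.87 (SE 0.49) for miR-148a-3p, 0.82 (SE 0.34) for miR-148b-3p, −0.55 (SE 0.38) for miR-152-3p and 0.42 (SE 0.48) for miR-152-5p, with a median of 0.26 over all miRNAs. By edgeR's quasi-likelihood test miR-148b-3p had an unadjusted p of 0.025 and an adjusted p of 0.20, and the other members had adjusted p of 0.33 to 0.68. Taken from the median over all miRNAs, the changes were 0.61, 0.56, −0.80 and 0.16. Over the main and alternative fits these relative values stayed between 0.58 and 0.65, 0.46 and 0.59, −0.96 and −0.78, and 0.03 and 0.16. miR-152-3p was thus the member below the median in each of the 12 fits, which reuse the same libraries. The 12 include the main fit and a test beyond 2-fold, which has the same ratios. Without replicate A of the KD6 input the changes were 0.55, 0.39, −0.93 and 0.38.

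Single calls did arise under other choices in this comparison. miR-152-3p was called at −1.35 with total mapped reads as library size and at −1.34 without replicate C of the KD6 IP (edgeR quasi-likelihood, adjusted p = 0.044 and 0.022). miR-148b-3p was called at 0.75 by DESeq2 (adjusted p = 0.049). In KD6 against KD3 none of the 4 members was called, with 0.187% of all miRNAs called. There the changes were 1.13 (SE 0.52), 0.53 (SE 0.34), −0.76 (SE 0.38) and 0.29 (SE 0.48), in the same order of members, and 0.99, 0.29, −0.96 and 0.43 with replicate A of the KD6 input left out. miR-152-3p was called at −1.35 without replicate C of the KD6 IP (edgeR quasi-likelihood, adjusted p = 0.022). These comparisons share the KD6 libraries.

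**Figure D4:**
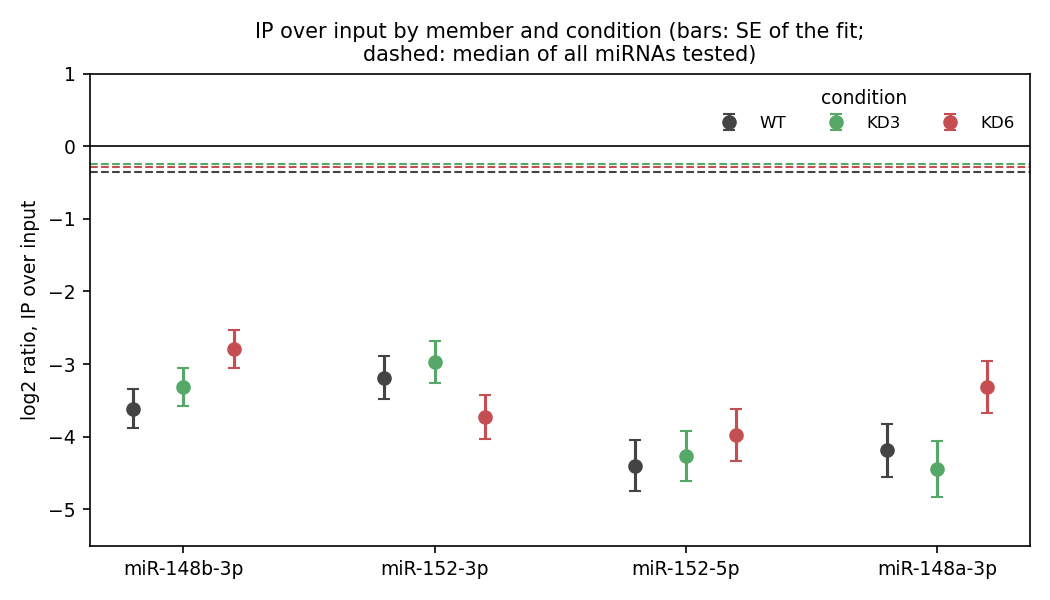
Log2 ratio of IP over input for miR-148b-3p, miR-152-3p, miR-152-5p and miR-148a-3p in WT, KD3 and KD6, with bars at ± 1 SE of the fit and dashed lines at the median of the 534 miRNAs. All ratios lie between −4.45 and −2.79, below the medians of −0.35 to −0.25, and miR-152-3p is the member whose KD6 value is lower than its WT value.

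The inputs were compared to see whether the level of the strands themselves differed between conditions, with the same limit on what knockdown can be credited with. In KD3 against WT input none of the 4 members was called and 0.00% of the miRNAs were (0 by edgeR's quasi-likelihood test, with 46 at an unadjusted p under 0.05, and 13 by DESeq2). miR-152-5p had the largest difference of the members, from 95.9 to 118 CPM in WT to 139 to 160 CPM in KD3 without overlap, as 37.6% of all miRNAs had. Its log2 difference of 0.51 (SE 0.28) had an unadjusted p of 0.085 and an adjusted p of 0.65 in edgeR's quasi-likelihood test. Fitted on the 6 libraries compared alone, it was called at 0.66 (edgeR quasi-likelihood, adjusted p = 0.0015), where 74 miRNAs were called in all. miR-148a-3p, miR-148b-3p and miR-152-3p differed by −0.03 (SE 0.29), 0.05 (SE 0.24) and 0.08 (SE 0.27).

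In KD6 against WT input none of the 4 members was called, with 5.06% of all miRNAs called. The log2 differences were 0.08 (SE 0.30) for miR-148a-3p, 0.08 (SE 0.24) for miR-148b-3p, 0.42 (SE 0.27) for miR-152-3p and −0.10 (SE 0.30) for miR-152-5p, and the groups overlapped for each of them, against 29.4% of all miRNAs without overlap. With replicate A of the KD6 input left out, the differences were 0.38, 0.48, 0.79 and −0.11, of which that of miR-152-3p had the smallest adjusted p (edgeR quasi-likelihood, 0.11). With no filter on low counts miR-152-3p was called at 0.78 (edgeR quasi-likelihood, adjusted p = 0.041). In KD6 against KD3 input none was called, with 5.99% of all miRNAs called and 23.8% without overlap. miR-152-5p was lower in KD6, by −0.61 (SE 0.30) and at an adjusted p of 0.29 (edgeR quasi-likelihood), and its 3 KD6 inputs, at 79.8 to 134 CPM, lay below its 3 KD3 inputs, at 139 to 160 CPM. The other members differed by 0.11 (SE 0.30), 0.03 (SE 0.24) and 0.33 (SE 0.27) for miR-148a-3p, miR-148b-3p and miR-152-3p. When the KD6 input lacked its replicate A, these values were 0.27, 0.29 and 0.57, and that of miR-152-5p was −0.76. Over all libraries left out in turn miR-152-5p ranged from −0.76 to −0.14.

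Other miRNAs known to target DNA methyltransferase transcripts served as a comparison list: miR-29a-3p, miR-29b-3p, miR-29c-3p, miR-185-5p, miR-342-3p, miR-143-3p and miR-101a-3p. In WT 6 of the 7 were called lower in IP and 1 higher, with a median log2 ratio of −2.29, against 216 lower (40.4%) and 140 higher of all 534 miRNAs and an overall median of −0.35. The list gave the same counts in KD3 (median −1.91), where 39.0% of all miRNAs were lower. In KD6 6 were lower and 1 was not called (median −2.62), against 37.6% of all miRNAs lower. The WT ratios ran from −5.81 for miR-101a-3p and −2.85 for miR-143-3p to 0.92 for miR-342-3p, the miRNA that was called higher in WT and KD3. For the change in ratio from WT to KD6, 1 of the 7 was called, against 1.12% of all miRNAs, and the list's median was −0.31. The call was of miR-101a-3p at 1.15 (edgeR quasi-likelihood, adjusted p = 0.045). It was lost in 22 of 23 other fits, the replicate block (adjusted p = 0.064) and every library left out among them, and kept by DESeq2 (adjusted p = 0.014).

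miR-1960 was the one miRNA outside the family with the same bases 2 to 7 as miR-148a-3p, and with 65.5 estimated counts in all it was not tested. A wider list of 117 miRNAs had, like miR-148b-3p, a uridine as first base and 7 uridines in all. Of these, 37 could be tested, and in WT 13 were called higher in IP, 8 lower and 16 neither, with a median of 0.63 and a range from −7.62 to 3.47. Over all 534 miRNAs 140 were higher and 216 lower, with a median of −0.35. In KD3 16 of the list were higher and 9 lower (median 0.85), against 150 and 208 of all (median −0.25). In KD6 14 were higher and 9 lower (median 0.64), against 166 and 201 of all (median −0.28). The ratio of −3.61 of miR-148b-3p in WT thus lay in the lower part of a list with the same number of uridines, whose members ranged widely.

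The miRNAs whose levels followed those of a member most closely were named by the Pearson correlation of log2 CPM over the 18 libraries, among 151 miRNAs with a mean of at least 100 CPM. For miR-148b-3p these were miR-455-5p (r = 0.984), miR-27a-3p (r = 0.982) and miR-101a-3p (r = 0.981). Their WT log2 ratios of IP over input were −5.82, −3.15 and −5.81, and each was nearer 0 in KD6, at −4.21, −2.12 and −4.66, given as values without a test. For miR-152-3p they were miR-210-3p (r = 0.983), miR-322-3p (r = 0.981) and miR-30a-5p (r = 0.981). These had WT ratios of −5.04, −2.49 and −4.91 and KD6 ratios of −5.15, −2.99 and −5.09, each lower in KD6. miR-148b-3p and miR-152-3p correlated with each other at r = 0.960. The points share their libraries and the split between IP and input. That split makes up most of the spread in each of these levels, so the correlations are descriptions. The KD6 libraries were among those used to pick these miRNAs, so their direction in KD6 is not independent of the choice.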

How the data were processed

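Small RNA (under 200 nt) of NIH/3T3 cells was sequenced unselected and after Ψ-IP. The authors ran the reads through the SeqImp pipeline with mm10, Ensembl 89 and miRBase 21, and deposited estimated counts per mature strand and precursor, in which a read with several matches is split. Of the non-zero values, 47.0% were not whole, and all were rounded before testing. Counts of distinct sequences were deposited beside them. A row holding library totals was left out. Each of 1907 miRNAs was represented by its row with the largest total (78 had several rows).

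The main test was edgeR 4.0.16 under R 4.3.3 (glmQLFit and glmQLFTest after filterByExpr and TMM scaling), in one model of 6 group means over 18 libraries, which left 534 miRNAs in 9 comparisons. An adjusted p under 0.05 (Benjamini-Hochberg) was the threshold. The authors used DESeq2, here an alternative (version 1.42.0). Within-library ratios (pseudocount 0.5) and the family's share went through exact permutation tests within condition, two-sided, adjusted over 6 tests. The sequences came from RefSeq and the procedure was tested on simulated data.

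All 5 members, miR-148b-5p, the lists and, for miR-148b-3p and miR-152-3p each, the 3 most correlated miRNAs were named by rule. The members, lists and tests were chosen with earlier results of these data known. Replicate letters were checked as pairs through the correlation of deviations from group means over 217 miRNAs. All pairs of one letter exceeded 0.1 between the KD3 and WT inputs (0.23 to 0.58) and between those of KD6 and KD3 (0.20 to 0.29). No label says what a letter shares, and the other comparisons had at least 1 pair under 0.1. Between WT IP and WT input all pairs were negative (−0.19 to −0.0061). Same-letter differences of IP minus input therefore rest on a pairing that neither the labels nor this check bear out. Alternatives were other scalings, filters, tests, thresholds, a replicate block and each library left out in turn.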

Additional observations from a re-analysis of the deposited data

Results flagged for a closer look

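The log2 ratio of miR-148b-3p to miR-152-3p within a library, IP minus input, differed between conditions: it was −0.44 in WT and 1.07 in KD6, a difference of 1.51. It was singled out because all 9 pairs of a WT IP and a WT input went one way and all 9 KD6 pairs the other. The exact permutation test of the difference gave p = 0.1, the smallest that 3 against 3 allows, so it cannot pass a threshold of 0.05. The 3 KD6 IPs held 166, 255 and 908 estimated counts of miR-152-3p and 730, 781 and 1902 of miR-148b-3p. Reads that match more than 1 place are divided in these counts, so the ratio also carries any uncertainty of that split.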

How the results depend on the processing

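The 4 tested members remained called lower in IP in each condition under every alternative and every library left out. With no filter on low counts miR-148a-5p was called too in WT, which made 5. Scaling moved the median of all miRNAs in WT from −0.35 to 0.38 with upper-quartile factors, and to −1.08 in KD6 with total mapped reads as library size. With the replicate letter as a block, 4, 4 and 4 members were called in WT, KD3 and KD6 and 0 in each other comparison, so the block changed no call of a member. In the paired analysis of the single values, the family share differed by −0.31 percentage points (exact sign-flip permutation test, p = 0.0039, the smallest it can give). Paired p-values adjusted over the 6 tests are not given, so whether the other single-value calls hold with pairing is left undecided. Over all miRNAs, the count for the change from WT to KD6 was 6 and ranged from 0 to 52 over the alternatives (0 with the block). That for KD6 against KD3 was 1 and ranged from 0 to 48, the 48 with replicate C of the KD6 IP left out, and those for inputs were 0, 27 and 32 and ranged from 0 to 74 (KD3 against WT), 0 to 30 (KD6 against WT) and 0 to 48 (KD6 against KD3).

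Counts of members called went from 0 to 1 for the change from WT to KD6 with total mapped reads and with DESeq2, for KD3 against WT input with only the libraries compared, and for KD6 against WT input with no abundance filter. With each library left out the counts were 0 to 1 for both changes that involve KD6. Ranges over libraries left out were −1.01 to −0.49 for miR-148b-3p over miR-148b-5p, 0.49 to 0.90 for miR-152-3p over miR-148a-3p, and 0.63 to 1.12 for miR-152-3p over miR-152-5p.

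Reversed signs concerned differences that were not called, and the cause was not tested. For the change from WT to KD3 they were −0.025 (miR-148b-3p), −0.12 (miR-152-3p) and −0.19 (miR-152-5p) with total mapped reads, and −0.0013 for miR-152-5p with a mean of at least 10 counts. From WT to KD6, miR-152-5p gave −0.27 with library size alone, −0.44 with total mapped reads and −0.0041 without a filter. From KD3 to KD6 it gave −0.34, −0.25 and −0.038, and miR-148b-3p gave −0.051 with library size alone. For KD3 against WT input, miR-148a-3p gave 0.11 with RLE factors, a mean of at least 10 counts, only the libraries compared and DESeq2, 0.090 with upper-quartile factors and 0.17 without a filter. For KD6 against WT input, miR-152-5p gave 0.16 with RLE, 0.18 with upper-quartile factors, 0.23 with library size alone, 0.18 with total mapped reads, 0.30 without a filter, 0.22 with a mean of at least 10 counts, 0.19 with only the libraries compared and 0.21 with DESeq2. With libraries left out, the ranges for the change from WT to KD3 were −0.050 to 0.26 (miR-148b-3p), −0.089 to 0.11 (miR-152-3p) and −0.40 to 0.092 (miR-152-5p). For miR-152-5p they were −0.24 to 0.49 from WT to KD6, −0.18 to 0.56 from KD3 to KD6 and −0.11 to 0.48 for KD6 against WT input, and for miR-148a-3p −0.057 to 0.20 for KD3 against WT input. Depth limits miR-148a-5p, and miR-148a-3p, miR-148b-5p and miR-152-5p in IP, which rest on 3 to 39 estimated counts per library.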
